A study of Mus musculus with 6 samples.

Results

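DNA methylation canyons are wide stretches of DNA in which cytosines carry almost no methyl group. In endothelial cells sorted from the lungs of wild-type (WT) mice, 430 such canyons were found. They were chosen on the mean of the 3 WT samples: a 1 kb tile with a mean methylation level under 10% was a valley tile, and 5 or more directly adjacent valley tiles made a canyon. Canyons held 3069 of the 1954255 tiles measured, and 3069 of the 26874 WT valley tiles. The other valley tiles lay in 15388 narrow valleys of 1 to 4 tiles. WT levels chose the canyons, so WT levels and lengths inside them are given as a description.

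Whole-genome bisulfite sequencing reads cytosine methylation along the genome. It was done on flow-sorted lung endothelial cells, in 3 samples from WT mice and 3 from mice labelled as Dnmt3a knockout (KO). The sources used here do not give the deleted part of the gene, the cells in which it was deleted, or the age, sex and strain of the mice. Nor do they give the number of animals per sample, so errors (SD, n = 3 per group) and p-values cover only the spread between these samples and may be technical.

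DNMT3A is an enzyme that adds methyl groups to cytosines that had none, a step called de novo methylation. Canyons are known from several tissues, where they often lie over genes of developmental transcription factors and carry the repressive histone mark of the Polycomb complexes. Most gene starts with many CG dinucleotides are unmethylated too, but over a far shorter stretch, the size of one CpG island.

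The sample means over all tiles were 63.5 to 63.8% in KO and 68.7 to 69.5% in WT. The levels come with no read counts, so their depth is unknown and they carry no counting interval. Marker genes were checked by the lowest WT tile in the gene or within 1 kb of it, which is a level of methylation and not of expression. A tile under 10% was found for 22 of 25 pan-endothelial markers, 4 of 15 leukocyte, 6 of 15 epithelial and 6 of 15 mesenchymal markers. Such a tile is not particular to endothelial genes. It was found for all 28 housekeeping genes and for 114 of 117 homeobox genes outside Hox, and it was not counted over all genes. The median of the lowest tiles was 1.71% for the endothelial marker list, and 41.9, 12.2 and 14.9% for the leukocyte, epithelial and mesenchymal lists.

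Sequences just before gene starts show how much CG the unmethylated stretches hold. The 250 bases before 7 starts (RefSeq, GRCm38.p6, the assembly that mm10 names) are printed 5′ to 3′ on the strand of the gene, with each CG in capitals. Uncx and Pax6 stand for the 2 longest canyons, Cbx8 for a canyon that was longer in KO, Atoh1 for one that was shorter, and Kdr for an endothelial gene. Polr2a, a housekeeping gene, starts in a narrow valley, and Ptprc, the leukocyte marker CD45, in a tile that is no valley.
Uncx: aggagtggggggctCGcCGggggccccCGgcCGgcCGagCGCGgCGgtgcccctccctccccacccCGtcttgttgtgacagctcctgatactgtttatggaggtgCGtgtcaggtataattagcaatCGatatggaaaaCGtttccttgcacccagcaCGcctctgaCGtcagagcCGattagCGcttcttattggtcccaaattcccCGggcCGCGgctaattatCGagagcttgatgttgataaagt
Pax6: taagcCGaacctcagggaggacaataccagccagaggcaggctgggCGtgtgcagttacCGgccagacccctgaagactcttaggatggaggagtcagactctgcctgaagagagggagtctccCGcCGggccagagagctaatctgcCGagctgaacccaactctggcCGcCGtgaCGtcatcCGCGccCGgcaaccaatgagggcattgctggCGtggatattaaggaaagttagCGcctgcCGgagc
Cbx8: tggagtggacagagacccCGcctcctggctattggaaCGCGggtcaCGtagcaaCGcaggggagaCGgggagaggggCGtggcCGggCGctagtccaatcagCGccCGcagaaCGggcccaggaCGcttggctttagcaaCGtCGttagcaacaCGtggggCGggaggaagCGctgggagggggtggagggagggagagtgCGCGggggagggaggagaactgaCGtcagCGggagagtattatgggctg
Atoh1: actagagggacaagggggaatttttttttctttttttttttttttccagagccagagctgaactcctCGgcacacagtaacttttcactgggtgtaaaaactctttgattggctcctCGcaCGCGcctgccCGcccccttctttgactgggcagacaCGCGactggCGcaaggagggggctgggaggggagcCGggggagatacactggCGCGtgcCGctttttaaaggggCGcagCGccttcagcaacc
Kdr: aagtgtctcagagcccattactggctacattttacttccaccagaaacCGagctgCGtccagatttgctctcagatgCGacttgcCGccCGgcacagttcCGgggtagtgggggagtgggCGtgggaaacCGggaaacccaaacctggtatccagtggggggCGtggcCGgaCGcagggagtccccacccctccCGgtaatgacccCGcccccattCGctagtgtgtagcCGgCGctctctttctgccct
Polr2a: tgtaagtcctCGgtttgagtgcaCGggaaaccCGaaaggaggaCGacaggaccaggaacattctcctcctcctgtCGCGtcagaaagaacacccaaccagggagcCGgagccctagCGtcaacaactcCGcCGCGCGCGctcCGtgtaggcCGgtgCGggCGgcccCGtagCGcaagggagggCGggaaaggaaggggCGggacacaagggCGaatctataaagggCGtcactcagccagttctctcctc
Ptprc: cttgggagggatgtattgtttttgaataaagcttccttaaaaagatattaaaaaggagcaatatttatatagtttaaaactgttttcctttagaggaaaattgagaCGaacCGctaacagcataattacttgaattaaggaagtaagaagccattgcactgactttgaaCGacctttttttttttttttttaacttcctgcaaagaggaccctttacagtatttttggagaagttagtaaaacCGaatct
They lie at chr5:139543648-139543897 (+ strand), chr2:105668646-105668895 (+), chr11:119040914-119041163 (-), chr6:64728875-64729124 (+), chr5:75978456-75978705 (-), chr11:69758634-69758883 (-) and chr1:138175306-138175555 (-). They hold 20, 15, 22, 14, 16, 23 and 4 CG in this order.

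CG content before the start was close in canyons and narrow valleys and far lower elsewhere. Of protein-coding genes, 255 had at least 1 of 316 starts of the RefSeq table in a canyon tile, and the 250 bases before these starts held a median of 16.5 CG (quartiles 11 and 23). The median was 18 (12 and 25) for 10121 starts in narrow valleys and 3 (2 and 7) for 8543 starts in other measured tiles. At least 15 CG were found in 58.9% of the canyon starts, in 65.4% of the narrow valley starts and in 39.8% of all measured starts. The Uncx and Polr2a sequences above are a pair of this kind, with 20 and 23 CG, one in a canyon of 25 kb and the other in a narrow valley. The table of starts lacks some genes, among them Foxf1, Ets1 and Tbx3, so the 255 genes are an undercount.

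WT canyons were mostly just past the limit of length. Of the 430, 163 were 5 kb long, 207 were 6 to 9 kb, 55 were 10 to 19 kb and 5 were 20 kb or more, with a mean of 7.14 kb. Just outside the rule lay 389 runs of 4 tiles. The tiles at the inner edge of canyons had a median WT level of 4.13% and the tiles next to them outside one of 23.1%. Of the member tiles 190 were at 8 to 10%, and of the 802 measured tiles next to an edge 105 were at 10 to 12%. The other 58 of 860 edges met a tile with no value in the table.

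The longest WT canyons lay over genes of transcription factors of the embryo. The longest ran for 25 kb over Uncx, a homeobox gene of the axial skeleton and kidney (chromosome 5, 139535001 to 139560000). A 24 kb canyon lay over Pax6, the paired box gene of the eye (chromosome 2, 105666001 to 105690000). One of 22 kb held Hoxc10, Hoxc11 and the non-coding gene Hotair (chromosome 15, 102947001 to 102969000). One of 21 kb held Six3, a homeobox gene of the forebrain and eye (chromosome 17, 85606001 to 85627000), and one of 20 kb Pax7, a paired box gene of muscle stem cells (chromosome 4, 139818001 to 139838000). The others among the 12 longest lay over Tfap2b and Foxf1 (18 kb each) and over Pou3f3, Lhx5, Hmx2 with Hmx3, Skor1 and Pou4f1 (17 kb each). Onecut2 shared that length of 17 kb. Of these, Foxf1, a forkhead gene that lung endothelium and mesenchyme are known to need, is the one on the list of endothelial transcription factors.

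Of the 5 longest canyons, the groups overlapped in all but that of Pax7. The Uncx run measured 17, 25 and 25 kb in KO replicates 1 to 3 and 21, 25 and 21 kb in WT. For Pax6 the runs were 20, 25 and 25 kb in KO and 24, 24 and 24 kb in WT. The Six3 runs were 15, 20 and 21 kb against 21, 21 and 19 kb. The Hoxc10 and Hoxc11 runs were 20, 22 and 22 kb against 22, 22 and 21 kb. In these 4 canyons KO was neither longer nor shorter throughout, and a single tile just over 10% in 1 sample was enough to split a run. At Pax7 the groups did not overlap, with 22, 22 and 21 kb in KO and 19, 20 and 17 kb in WT. Foxf1 was likewise longer in KO, at 22 kb in each KO sample and 18, 13 and 18 kb in WT.

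With the same rule applied to each sample alone, KO had more canyons, and they covered more DNA. There were 884, 883 and 873 canyons in KO and 420, 433 and 461 in WT, a ratio of means of 2.01. Their total length was 6567, 6741 and 6627 kb in KO and 2945, 3079 and 3258 kb in WT, a ratio of means of 2.15. All KO samples lay above all WT samples in both measures (two-sided exact permutation test, p = 0.10 for each, the smallest that 3 against 3 samples allow). The ratio of KO to WT differed by length class and was highest for the longest runs. Runs of 5 kb numbered 332 ± 11.6 in KO and 171.0 ± 6.0 in WT, a ratio of 1.94 (SD, n = 3), and runs of 6 to 9 kb 390.0 ± 8.66 and 207.0 ± 12.2, a ratio of 1.88. Runs of 10 to 19 kb numbered 140.0 ± 4.36 against 55.3 ± 3.06, a ratio of 2.53. Runs of 20 kb or more numbered 16, 20 and 17 in KO and 4, 5 and 5 in WT, a ratio of 3.79. Each of these length classes had an exact permutation p of 0.10 as well, and the median length was 6 kb in every sample.

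**Figure D1:**
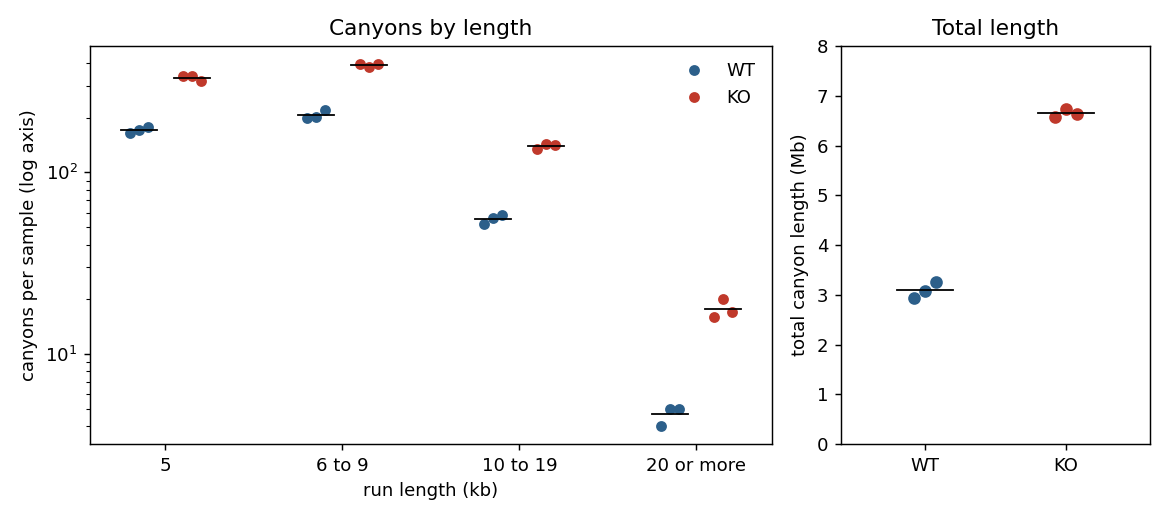
Number of canyons per sample in 4 length classes (left, log axis) and total canyon length per sample in Mb (right); each point is a sample and each bar the mean of 3. In every class the 3 KO samples lie above the 3 WT samples, and the total is 6567 to 6741 kb in KO and 2945 to 3258 kb in WT.

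On the group means, 861 canyons covered 6599 kb in KO, against 430 with 3069 kb in WT. Of the KO canyons, 409 overlapped a WT canyon and covered 3666 kb. The other 452, with 2933 kb, met no WT canyon. Of these, 167 had a longest WT run of 4 kb, 125 one of 3 kb and 160 one of 2 kb or less, 26 of them with no WT valley tile at all. These 452 were chosen for being long in KO, so their KO length is a description.

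Several of the longest KO canyons with no WT canyon lay over transcription factor genes. The longest ran for 25 kb over Hoxa3, Hoxa4, Hoxa5 and Hoxa6, with a longest WT run of 3 kb. A run of 21 kb lay in Zfhx3, a zinc finger homeobox gene, with WT runs of 1 kb. Another of 19 kb held Nr2f2, the COUP-TFII gene of venous identity, which had 18, 19 and 19 kb in KO and 3 kb in each WT sample. Next came Nfix at 18 kb (19, 18 and 11 kb in KO, no valley tile in any WT sample), Foxd1 at 18 kb, Tbx5 and Osr1 at 17 kb each and Tbx2 at 16 kb. These lengths are those on the KO mean. In single samples Foxd1 had 18, 15 and 18 kb in KO and 3, 5 and 3 kb in WT. Osr1 had 14, 13 and 14 kb in KO and 3 kb in each WT sample. Tbx2 and Tbx5 are T-box genes of lung and heart development. These regions were chosen for their KO length. Of all 452, 350 had a longer run in every KO sample than in every WT sample, a count that rests on the same choice.

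Most WT canyons were as long or longer in KO. For each canyon, the longest run of low tiles that overlapped it was measured in each sample. Canyons that lay in one run were each given its whole length. On the KO mean, 227 of the 430 canyons were longer, 180 equal and 23 shorter, and the median gain was 1 kb. None was lost, and 7 fell under 5 kb. A gain of 5 kb or more was found in 68, and 56 at least doubled (2 times the length or more). In 129 canyons (30.0%) the run was longer in each KO sample than in each WT sample, and in 2 (0.465%) it was shorter in each. Over all 15818 WT runs of valley tiles of any length, these shares were 15.5% and 0.107%. For narrow valleys alone they were 15.1% and 0.0975%. WT values chose the canyons and so enter this comparison. With canyons chosen on the KO mean, a choice that favours long KO runs, 468 of 861 were longer in every KO sample and 1 was shorter. Canyons of 10 kb or more were longer in every KO sample in 11 of 60 cases (18.3%).

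**Figure D2:**
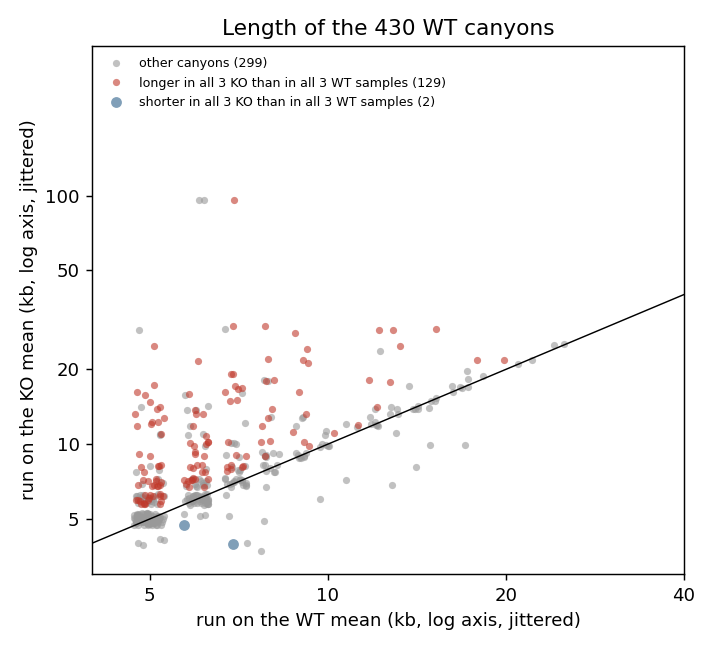
Length of the run on the KO mean against the run on the WT mean for each of the 430 WT canyons, in kb on log axes with a small jitter; the line marks equal length. The 129 canyons that were longer in all 3 KO samples than in all 3 WT samples lie above the line, up to a KO run of 96 kb, and 2 canyons were shorter in all 3.

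Neighbouring canyons merged in KO. The 430 canyons lay in 410 KO runs, of which 18 held more than 1 canyon and took in 38 canyons. The longest KO run covered 96 kb of the HoxB cluster, from Hoxb9 to Hoxb2 (chromosome 11, 96259001 to 96355000), and held 3 WT canyons, the longest of 7 kb. Its level was 2.24% in KO and 32.5% in WT. The longest run in this stretch was 46, 96 and 77 kb in KO and 11, 6 and 7 kb in WT. KO replicate 1 was broken in several places: its runs over the 3 WT canyons were 4, 13 and 6 kb. At 2 of these 3 canyons the groups overlapped, with KO replicate 1 at 4 and 6 kb against 6 to 7 kb and 6 to 11 kb in WT.

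Among the canyons that gained most, those over Hox genes stood beside those of Cbx8, Gata3 and Tbx3. Hox genes encode the homeobox factors that set position along the body axis. The canyon of Hoxd10, Hoxd11 and Hoxd12 had 19, 23 and 23 kb in KO and 12 kb in each WT sample. That of Hoxc5 and Hoxc6 had 18, 29 and 20 kb against 7, 15 and 15 kb. The canyon over Hoxb8 and Hoxb9, chosen with these for its gain, had 13, 96 and 77 kb in KO and 11, 4 and 7 kb in WT. These were picked from canyons longer in every KO sample, so that their groups do not overlap is part of the choice. Some other Hox canyons with large gains on the KO mean overlapped between the groups. The canyon over Hoxb7 and Hoxb8 had 6, 96 and 77 kb in KO and 11, 6 and 6 kb in WT, and that of Hoxd13 had 19, 5 and 4 kb in KO and 4, 7 and 4 kb in WT.

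Outside Hox, the largest gains were as follows. A 5 kb canyon at Cbx8, a Polycomb subunit that reads histone H3 methylated at lysine 27 (chromosome 11, 119040001 to 119045000), ran for 26, 25 and 25 kb in KO and 5, 3 and 5 kb in WT. The 250 bases shown above lie in this canyon. Its KO run also took in a neighbouring WT canyon of 13 kb. A 9 kb canyon over the non-coding gene 9230102O04Rik beside Gata3, a zinc finger factor gene (chromosome 2, 9888001 to 9897000), ran for 28 kb in each KO sample and 10, 9 and 9 kb in WT. Its KO run took in the start of Gata3. The 6 kb canyon at Tbx3, a T-box gene (chromosome 5, 119670001 to 119676000), ran for 22, 32 and 22 kb in KO and 6, 7 and 6 kb in WT. These 3 were picked in the same way.

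**Figure D3:**
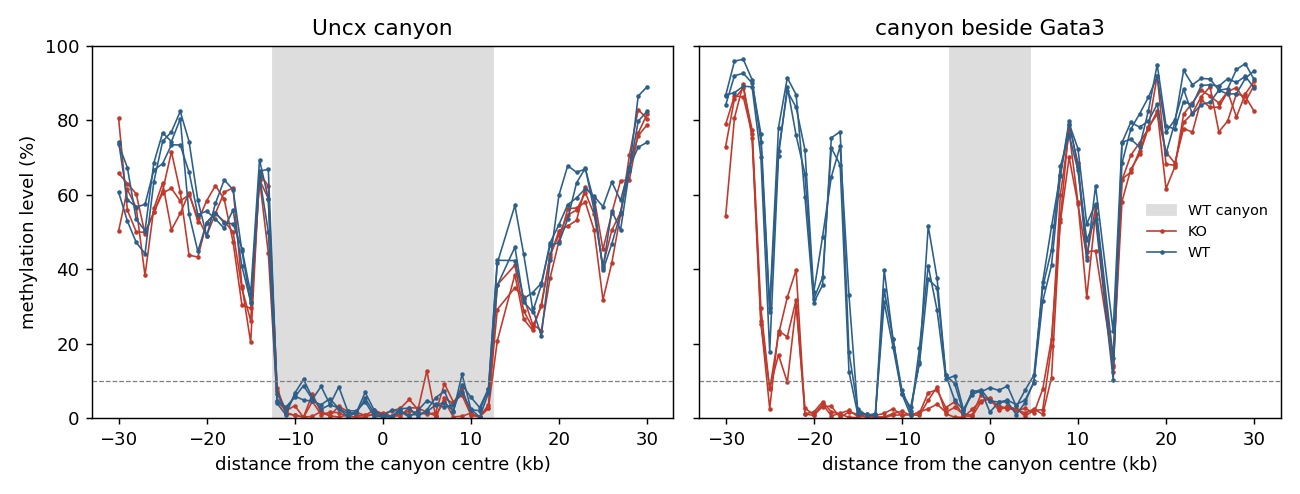
Methylation level in percent of each measured 1 kb tile against its distance from the canyon centre, for the Uncx canyon and the canyon beside Gata3; each line is a sample, grey marks the WT canyon and the dashed line the limit of 10%. At Uncx the KO and WT lines leave the canyon at the same place, whereas beside Gata3 the KO lines stay low over a run of 28 kb against 9 to 10 kb in WT.

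Endothelial genes were among the WT canyons. Of 25 pan-endothelial markers, 6 overlapped a canyon (24.0%, against 1.95% of all 20665 coding genes). They were Egfl7, a secreted protein of endothelium (8 kb), the VEGF receptor genes Flt1 (6 kb) and Kdr (5 kb), the junction genes Cldn5 and Esam, and Clec14a (5 kb each). Inside the Kdr canyon (chromosome 5, 75974001 to 75979000) the level was 1.96% ± 0.646 in KO and 2.66% ± 0.807 in WT, with overlapping runs of 6, 5 and 5 kb and 5, 5 and 5 kb. Flt1 had 7 kb in each KO sample and 6 kb in each WT sample, and it was the only one of the 6 that was longer in every KO sample. Clec14a had 3, 5 and 3 kb in KO and 5, 5 and 3 kb in WT.

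Of 36 endothelial transcription factor genes, 11 overlapped a WT canyon (30.6%) and 23 a KO canyon (63.9%, against 4.02% of all coding genes). Of the 11 canyons, 6 were longer in every KO sample, against 129 of all 430 canyons (30.0%). Besides Foxf1 and Tbx3 they were those of Hlx, Tal1, Foxc2 and Nr2f1. Foxf1 and Tbx3 are also on the forkhead and T-box lists used below. Hlx, a homeobox gene (chromosome 1, 184729001 to 184736000), had 15, 13 and 15 kb in KO and 7 kb in each WT sample. Tal1, a bHLH factor of blood and endothelium, had 6, 9 and 13 kb in KO and 5 kb in each WT sample. Foxc2, a forkhead gene of lymphatic valves, had 10 kb in each KO sample and 4, 4 and 6 kb in WT. The groups overlapped at Erg, the ETS factor gene of endothelial identity, with 11, 11 and 14 kb in KO and 11, 8 and 11 kb in WT. They overlapped too at Prox1, the lymphatic master regulator, with 9, 8 and 8 kb against 8 kb in each WT sample. Ets1 had 5, 9 and 9 kb in KO and 8, 7 and 8 kb in WT, again with overlap.

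Transcription factor families of development lay in many canyons, but not in most. Of all 430, 151 held a listed transcription factor gene, 227 held other coding genes only and 52 held no coding gene. The shares longer in every KO sample were 33.8%, 29.5% and 21.2% in this order. Of 41 Hox and Evx genes, 25 overlapped a WT canyon (61.0%) and 38 a KO canyon (92.7%). Of the 20 WT canyons they lay in, 17 were longer on the KO mean, against 227 of all 430 canyons, with a median gain of 11 kb against 1 kb. In every KO sample 7 of the 20 were longer, near the 30.0% of all canyons. Of 117 other homeobox genes, 73 overlapped a WT canyon (62.4%) and 95 a KO canyon (81.2%), with Pax6, Six3, Pax7 and Hmx2 in the longest. Their 81 canyons had a median gain of 1 kb, as all canyons had, and 28 were longer in every KO sample, again near the 30.0% of all canyons. Some neighbouring genes share a canyon, so these counts rest on fewer loci than genes. Some Hox canyons also lie in one KO run and were each given its whole length. Their counts and median gain thus rest on fewer separate gains.

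Of the smaller families, T-box genes overlapped WT canyons in 4 of 16 cases (Tbx15, Tbx18, Tbx20 and Tbx3) and KO canyons in 11. Forkhead genes did so in 9 and 20 of 41, with Foxf1, Foxb1, Foxd3 and Foxa1 in the longest. Sox genes did so in 6 and 10 of 18, with Sox14, Sox1, Sox21 and Sox2. The list of GATA, Zic, Gli and Sall zinc finger genes, which also holds Osr and Prdm genes, did so in 10 and 16 of 27. Of its 11 canyons, 6 were longer in every KO sample, against 30.0% of all canyons. One of these was that of Gata4, a cardiac factor, at 9, 13 and 14 kb in KO and 4, 5 and 5 kb in WT. Another was that of Zic2, at 11, 17 and 17 kb against 7, 7 and 8 kb. Developmental bHLH genes overlapped WT canyons in 14 and KO canyons in 22 of 44 cases, with Olig2, Neurod2 and Atoh1 among the longest. Canyons longer in every KO sample were 2 of 4 for T-box, 2 of 9 for forkhead, 1 of 6 for Sox and 4 of 14 for bHLH genes. One bHLH canyon was shorter in every KO sample. Some genes, among them Foxf1 and Tbx3, are on several lists, so the counts of different lists are not separate results. Of all coding genes, 1.95% overlapped a WT canyon and 4.02% a KO canyon.

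Genes of other roles are given against the 1.95% of all coding genes that overlapped a WT canyon. Wnt, hedgehog, BMP and FGF ligand genes overlapped WT canyons in 8 of 54 cases (14.8%), among them Shh (10 kb), Fgf9, Gdf6 and Wnt11, and 1 of their 8 canyons was longer in every KO sample. Polycomb and trithorax genes did so in 2 of 34 cases (5.88%), Cbx8 and the demethylase gene Kdm6b, and both canyons were longer in every KO sample. Of the markers of other cell types, none of 15 leukocyte and none of 15 epithelial genes lay in a canyon of either group. Among 15 mesenchymal markers, Pdgfra did in WT (9 kb) and Tcf21 was added in KO. No housekeeping gene of 28 overlapped a canyon, although all 28 had a WT tile under 10%.

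In all, 378 canyons overlapped a protein-coding gene, 336 of them a single one. Another 39 met only other annotated genes and 13 met no gene. The canyons touched 402 coding genes, 84 of which lay whole inside one, and 398 of the 402 also overlapped a KO canyon. Exons, introns and untranslated regions were not analysed here. In 229 canyons the RefSeq table, which lacks some starts, places the start of exactly 1 coding gene. There the canyon reached a median of 2.23 kb upstream of the start and 4.09 kb downstream, and it reached further downstream in 160. Of 218 such canyons that shared their KO run with no other, 33 gained only on the upstream side, 43 only downstream and 21 on both. The KO gains summed to 86 kb upstream and 124 kb downstream.

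Of the 430 canyons, 23 were shorter on the KO mean. The 5 largest losses were at Onecut2 (17 to 10 kb), Dlx5 (14 to 8 kb), the microRNA host gene Mir9-3hg (13 to 7 kb), Lbx1 (15 to 10 kb) and Pax1 (11 to 7 kb). In none of them were the groups apart. Dlx5, for example, had 8, 8 and 14 kb in KO and 8, 8 and 14 kb in WT, and Lbx1 had 16, 24 and 10 kb in KO and 17, 15 and 16 kb in WT. The 2 canyons that were shorter in every KO sample, named after their values were seen, were those of Atoh1 and Irx4. Atoh1, a bHLH factor of hair cells and gut secretory cells (chromosome 6, 64728001 to 64735000), had 5, 4 and 3 kb in KO and 7, 8 and 8 kb in WT. Irx4, an Iroquois homeobox gene (chromosome 13, 73267001 to 73273000), had 5 kb in each KO sample and 8, 6 and 6 kb in WT.

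Inside the canyons the level was low in both groups and lower in KO. The mean over member tiles was 2.46, 2.21 and 2.14% in KO and 3.40, 3.25 and 3.11% in WT, a difference of -0.985 points. Choosing tiles for a low WT level favours a low WT value, and KO lay below it all the same. In canyons chosen from 2 WT samples, the WT sample that was not used was at 3.68, 3.42 or 3.26%, and the KO samples were at 2.19 to 2.52%. Of the 430 canyons, 368 had a lower mean in KO. In 206 canyons each KO level was under each WT level, and in 4 it was over. The highest canyon mean was 8.53% in KO and 7.67% in WT. The difference was largest in the outermost tile at 2.83% ± 0.152 in KO and 4.44% ± 0.153 in WT, and in the tile next to it the levels were 1.83% ± 0.173 and 2.53% ± 0.134. Without the outermost tiles the difference was -0.744 points.

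Tile by tile, 284 of the 3069 member tiles were lower in KO by any amount (9.25%, against 18.4% of all tiles; limma, adjusted p under 0.05). A fall of 10 points is not possible in a tile under 10%. In 11 member tiles (0.358%, against 0.1% of all tiles) the level was higher in KO, and these lay in 10 canyons. At an unadjusted p under 0.05, 43 member tiles were higher. Without a variance trend limma called 0 higher, and 1 at an unadjusted p under 0.05, so these calls rest on that setting. They also use the WT levels that chose the tiles. Atoh1 had 2 of them. In the tile from 64731001 to 64732000 the level was 9.65, 12.2 and 14.2% in KO and 8.21, 2.84 and 7.63% in WT (limma, adjusted p = 0.0181). The tile at Irx4 from 73267001 to 73268000 had 11.3, 10.6 and 16.0% in KO and 5.17, 7.72 and 5.30% in WT (limma, adjusted p = 0.00614). In both tiles the groups did not overlap. One tile each was higher in the canyons of Pax3, Pax1, Hmx1, Cdx2, Hoxc13 and Hoxc10 with Hoxc11, and in 2 canyons with no coding gene. At Hoxc13 KO replicate 1 stood apart, with 25.8, 7.28 and 7.74% in KO and 5.45, 4.83 and 3.71% in WT.

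The DNA around the canyons, which the rule did not choose except that the next tile is at 10% or more in WT, was less methylated in KO. Within 5 kb of an edge, the mean level was 35.9, 35.3 and 36.2% in KO and 47.5, 46.8 and 46.5% in WT. The difference of -11.1 points had an exact permutation p of 0.10, and the groups did not overlap. Of these 3686 tiles, 1392 were lower by at least 10 points (37.8%, against 16.2% of all tiles; limma, adjusted p under 0.05). At 1 kb from the edge the level was 19.4% ± 0.320 in KO and 31.4% ± 0.801 in WT, and 38.3% of the tiles were under 10% in KO. At 20 kb it was 59.4% ± 0.319 and 67.6% ± 0.428.

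Canyon flanks were less methylated than the flanks of narrow valleys in both groups. Within 5 kb of narrow valleys the level was 56.1% ± 0.381 in KO and 66.5% ± 0.421 in WT, and 36.9% of tiles were called lower. The step from canyon flank to narrow flank was -20.1, -20.5 and -20.4 points in KO and -19.5, -19.4 and -19.8 points in WT. Its difference of -0.767 points between the groups had an exact permutation p of 0.10, with no overlap.

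**Figure D4:**
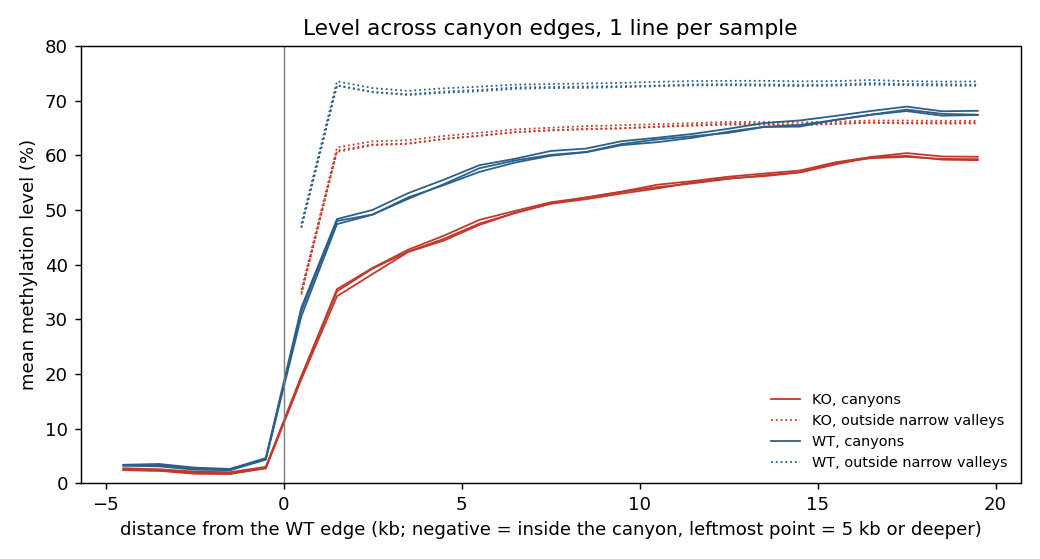
Mean methylation level in percent against distance from the WT edge in kb, inside canyons (negative) and outside them (solid lines), and outside narrow valleys (dotted lines); each line is a sample. KO lines lie below WT lines at each distance outside, with 19.4% against 31.4% at 1 kb from a canyon.

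Canyons of different length differed in their flanks. Within 5 kb of the 163 canyons of 5 kb, the level was 40.1% ± 0.471 in KO and 52.4% ± 0.514 in WT, and 42.8% of tiles were called lower. Around the 207 canyons of 6 to 9 kb it was 32.1% ± 0.451 and 43.7% ± 0.551, with 38.7% called. Around the 60 canyons of 10 kb or more it was 33.4, 32.8 and 33.5% in KO and 39.2, 38.3 and 37.6% in WT, a difference of -5.14 points. There 81 of 480 tiles were called lower (16.9%), near the share of all tiles. The level around canyons of 10 kb or more minus that around canyons of 5 to 9 kb was -9.16, -9.30 and -9.80 points in WT and -2.51, -2.61 and -2.70 points in KO. The loss in KO was thus 6.82 points smaller around the longer canyons (two-sided exact permutation test, p = 0.10), with no overlap between the groups. WT levels went from 52.4% around canyons of 5 kb to 38.4% around the longest class, and its part in the result was not tested beyond the following count. Counting only tiles at 20% or more in WT, 22.3% of 328 were called around the longer canyons and 49.2% of 2445 around the shorter ones.

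**Figure D5:**
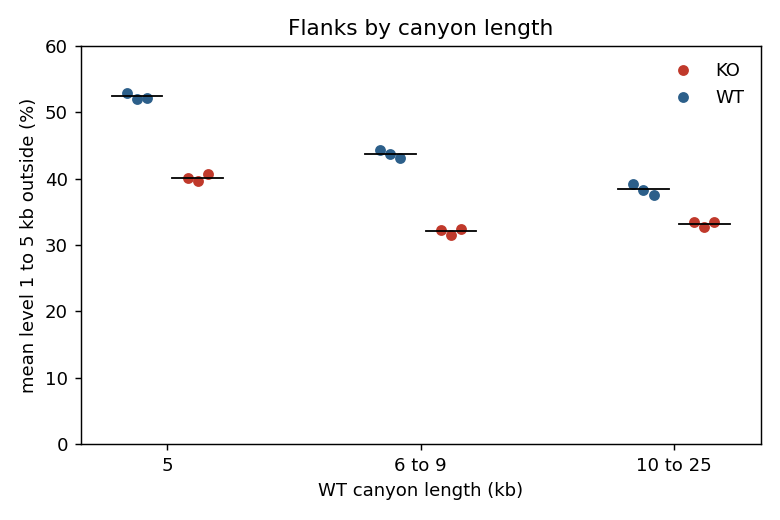
Mean methylation level in percent of tiles 1 to 5 kb outside WT canyons, by canyon length in kb; each point is a sample and each bar the mean of 3. KO minus WT is -12.3 points for canyons of 5 kb and -5.14 points for those of 10 kb or more.

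Canyons lay on every measured chromosome, from 0.825 canyon tiles per 1000 measured tiles on chromosome 16 to 2.69 on chromosome 5 in WT. On the KO mean the total length was larger on all 19 chromosomes, from 1.58 times on chromosome 9 to 3.50 times on chromosome 11.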

How the data were processed

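The labels' protocols describe whole-genome bisulfite sequencing by tagmentation. Per the submitters' processing notes, BWA 0.7.8 and the build mm10 were used. The deposited table gives a fraction between 0 and 1, the methylation level, per 1 kb tile and sample on chromosomes 1 to 19. The sources used here do not state the caller, any smoothing, the coverage filter or the choice of tiles. Smoothing would blur canyon edges.

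Fractions were turned into percent. Each tile was tested with limma 3.58.1 (R 4.3.3) with a variance trend and Benjamini-Hochberg adjustment over all tiles; single values were compared with two-sided exact permutation tests over samples. Scripts ran in Python 3.11.15 with numpy 2.4.6 and pandas 2.3.3, and the fit and the run search were tested on simulated data. A tile with no value ends a run. Genes and starts came from RefSeq tables of GRCm38.p6.

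The canyon rule, the 15 gene lists and the choice of results were made with earlier results of these data known. Canyons named were the 12 longest in WT, the 8 with the largest KO gain among those longer in every KO sample, the 5 with the largest loss and the 5 with the most tiles called higher (ties in genome order), with up to 4 members of each list. Others were chosen after their values were seen. Some canyons and genes that this rule names are not reported here. Alternatives covered the limit, run length, bridging of 1 tile, scaling, the samples used, flank width and the fit.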

Additional observations from a re-analysis of the deposited data

How the results depend on the processing

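KO had more canyons of greater total length than WT under every setting tried: the ratio of totals was 1.89 (runs of 3 or more tiles) to 2.92 (limit of 5%). Canyons longer in every KO sample made up 18.3% with runs of 10 or more tiles and 54.4% with canyons from the KO mean, against 30.0%. Tiles called lower within 5 kb were 15.03% around runs of 10 or more tiles and 16.7% at a minimum of 20 points, against 37.8%. The 15.03% is 81 of 539 tiles, as tiles of shorter canyons nearby count as flank in that setting. They were left out of the 81 of 480 given above. Scaling each sample to one mean level gave 26.3%. The share of member tiles called higher was 0.221% at a limit of 5%, 0.625% at 15%, 0.217% with runs of 3 or more tiles, 0.0758% in canyons from the KO mean and 0% without a variance trend, against 0.358%. The level inside differed by -0.430 points at a limit of 5%, -1.44 at 15%, -0.803 after scaling, -8.66 in canyons from the KO mean, -1.73 in canyons from all 6 samples and -0.744 without the outermost tiles, against -0.985. Canyons from the KO mean were chosen for low KO levels, so their values of 54.4%, 0.0758% and -8.66 points are a description. Apart from the variance trend, the cause of the other moves was not tested. The outermost tiles, the canyons that share a KO run and the Hox clusters were left out as alternatives chosen after seeing the data; without Hox clusters 29.7% of canyons were longer in every KO sample.

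Without any 1 sample, the ratio of totals was 2.10 to 2.21 and that of numbers 1.97 to 2.06. Then 31.7 to 35.6% of canyons were longer in every KO sample, and 34.3 to 36.3% of flank tiles were called lower. The level inside differed by -1.08 to -0.891 points. With fewer samples it is easier for every KO run to exceed every WT run, so these shares are not like the 30.0% of the full set. The flank calls in these settings also rest on fewer samples. Tiles called higher inside were 0.223% (7 tiles, without WT replicate 2) to 0.587% (18 tiles, without KO replicate 3). Same-numbered samples did not deviate together from tile to tile. Their correlations were -0.00321 to 0.0110 over all tiles and -0.0170 to 0.0267 over member tiles. This cannot show whether they were paired, as the spread of single tiles may hide a shared batch. With the replicate number as a block, 38.1% of flank tiles were called lower and 0.489% of member tiles higher, and the exact permutation p within pairs was 0.25 for number and total length, the smallest that 3 pairs allow. Depth is unknown, so a tile near 10% cannot be told from one on the other side of the limit by counting error.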
